A study of Mus musculus with 6 samples.

Results

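Retina from C57BL/6J mice at postnatal day 6 (P6) was compared with retina of the same strain at postnatal day 21 (P21), 15 days apart. The comparison used 2 of the 6 samples of the series and 4 of its 12 count columns: each stage was 1 sample with 2 count columns, called here its first and its second column. The columns were taken by their labels and no measured value entered the choice. No genetic change or treatment was labelled in either group, and how many animals a sample held is not given in the sources used here. The assay, PA-seq, primes cDNA at the poly(A) tail and sequences the end next to it, so that each tag marks where an mRNA was cleaved and polyadenylated. The deposited table counted tags at 32688 poly(A) sites, and P6 held 2164479 and 1945462 tags in its columns and P21 1958762 and 1965997.

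In the mouse eye the last retinal cells are born in the first postnatal week. Over the following weeks rods and cones build outer segments, photoreceptors and bipolar cells form ribbon synapses, Müller glia mature and the eyes open. Most mammalian genes have more than 1 poly(A) site. Use of a site further downstream in the last exon gives a longer 3′ untranslated region, and use of a site in an intron gives a transcript that lacks the later exons.

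The 2 columns of a stage were read as repeat columns of 1 sample, not as replicates, and no p-value is given. What distinguishes them is not given in the sources used here. A gene was called higher or lower at P21 if its scaled tags differed at least 2-fold the same way in both columns, with at least 20 tags at P6 or P21 in each column. Abundance is given as counts per 1000000 scaled tags of the column or stage (CPM), and counts under 3 tags were set to 3 before a ratio was taken. The 95% intervals are exact intervals on the summed columns. PCR tags without molecular identifiers are not independent molecules, so these intervals cover counting error only and say nothing of animals. They do not cover the gap between the columns either, and for some genes the ratios of both columns lay outside the interval.

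The columns were close for most sites and stood apart for some, more so at P21. Of 17219 sites with at least 20 tags at P21, 149 were at least 4-fold lower in the second column and 5 at least 4-fold higher, against 21 and 1 of 16881 sites at P6. The gaps had more than 1 form. In some photoreceptor genes a strong site was nearly missing from the second column at P21: the distal site of Prph2, a scaffold protein of the outer segment rim, had 911 and 840 tags at P6 and 1476 and 6 at P21, while its proximal site had 1276 and 1194 tags and then 2008 and 2214. A strong site of Pde6g, a subunit of the rod phosphodiesterase, went from 1388 and 1334 tags to 2126 and 224. The main site of Sag, rod arrestin, went from 738 and 687 tags to 974 and 37. In other genes the first column held tags that the second lacked. Mki67, a marker of dividing cells, had 126 and 98 tags at P6 and 96 and 2 at P21, and Top2a, a topoisomerase of dividing cells, had 186 and 77 tags and then 162 and 3. Opn1mw, the middle-wavelength cone opsin, had 17, 106, 38 and 94 tags in the first columns of E13.5, E15.5, E18.5 and P0 and 0 tags in each of their second columns. A gene therefore counted here only where both columns moved, and the part of these gaps in the results was not tested.

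**Figure D1:**
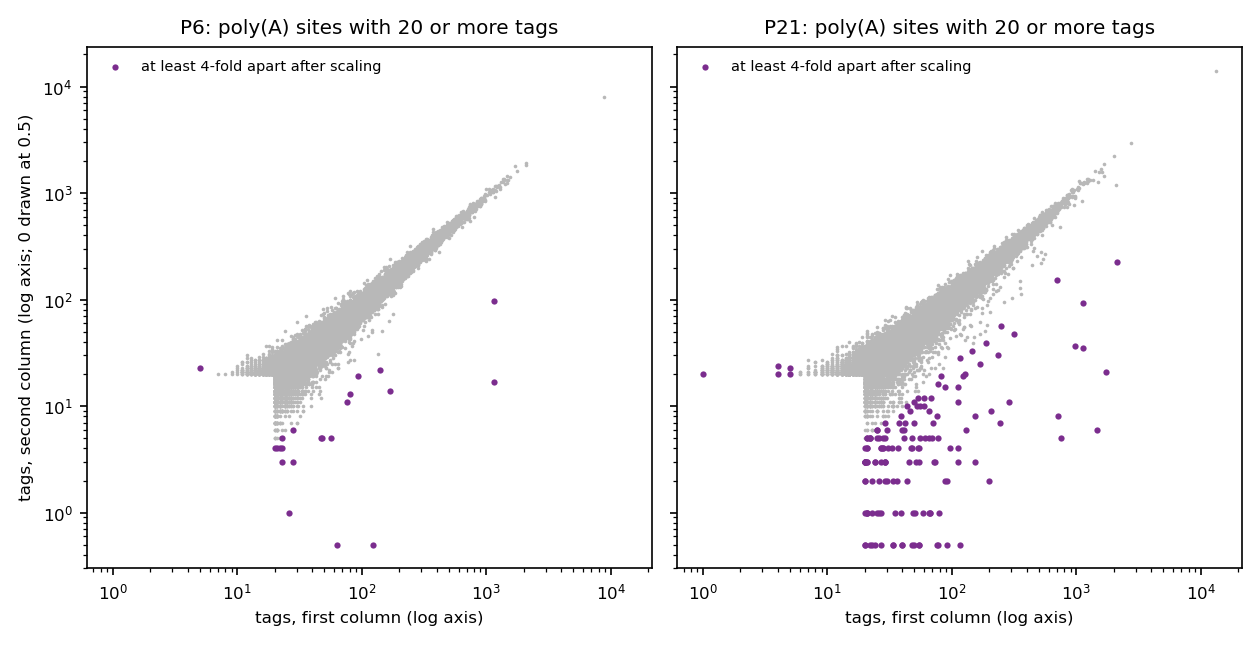
Tags at each poly(A) site in the first column (x axis, log scale) against the second column (y axis, log scale), at P6 (left) and P21 (right). Grey points are sites with at least 20 tags in a column and purple points are those at least 4-fold apart after scaling. At P21 149 sites lie 4-fold or more below and 5 above, against 21 and 1 at P6.

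Markers of the main retinal cell types were read at both stages. Of 28 markers of rods, cones, bipolar, amacrine, ganglion and horizontal cells and Müller glia, 27 had tags. Onecut1, a horizontal cell factor, had no site in the table. The rod markers Nrl, Gnat1, Pde6b and Sag lay between 172 and 846 CPM at P6 and between 290 and 993 CPM at P21. The lowest marker at P6 was Aqp4, the water channel of mature Müller glia, with 0.739 CPM, and the lowest at P21 was Lhx1, a horizontal cell factor, with 6.00 CPM. The labelled tissue thus had tags of each of these cell types at both stages. No nuclear site took more than 0.151% of the tags of a column at either stage. Whether duplicate reads were removed is not given in the sources used here.

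Of 14422 nuclear genes with a site, 11511 had enough tags to be compared. At P21 770 of them were higher in both columns (6.69% of the genes compared) and 271 were lower in both (2.35%). The counts of the gene lists below are to be read beside these shares. In 254 of the genes that were higher and in 42 of those that were lower the ratio was at least 4-fold in both columns. The median log2 ratio of all genes compared was -0.01. Another 937 genes passed 2-fold in 1 column only, and 1 gene passed it in opposite directions. The median log2 ratio of the genes called lower was -1.37 by the first columns and -1.86 by the second, and those called higher had medians of 1.68 and 1.87. Taken from the second columns alone, 1215 genes were higher and 730 lower, against 948 and 378 from the first columns alone. In bulk retina, fewer cells of a type and less RNA per cell cannot be told apart.

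**Figure D2:**
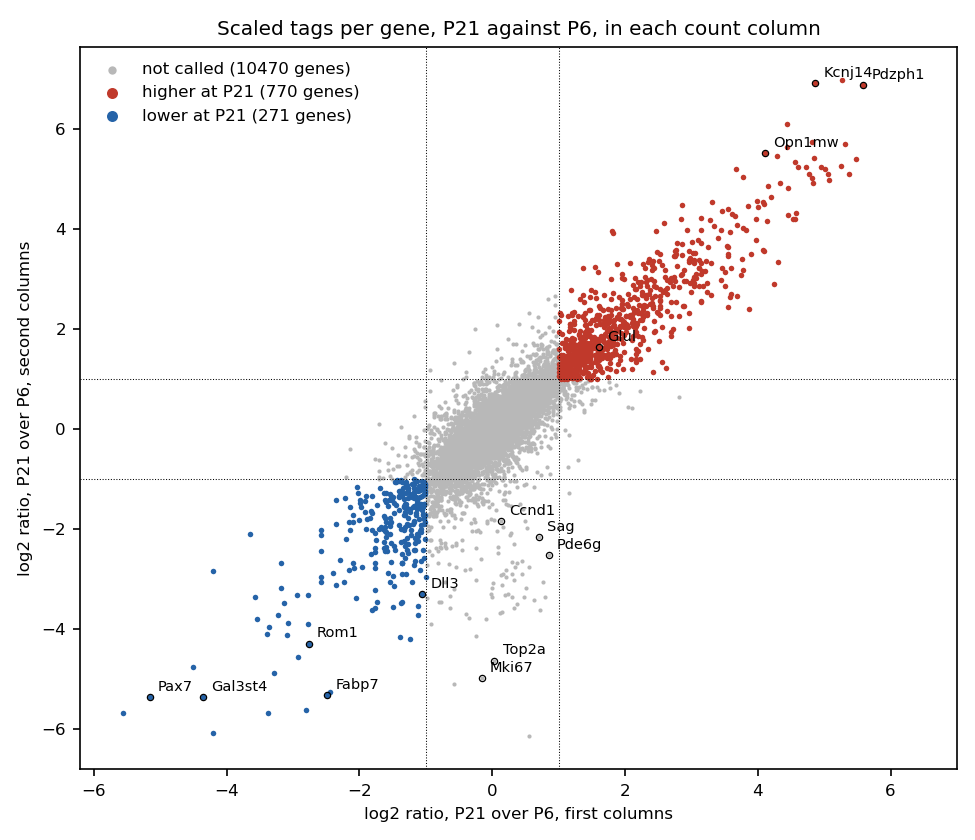
Log2 ratio of P21 over P6 in the first columns (x axis) and in the second columns (y axis) for the 11511 genes compared. Red points are the 770 genes called higher at P21, blue points the 271 called lower, grey points those not called, and dotted lines mark 2-fold. Mki67, Top2a, Ccnd1, Sag and Pde6g lie below the line in the second columns only.

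The genes with the largest gains included channels, a neuropeptide and a calcium buffer. Kcnj14, an inward rectifier potassium channel (strongest site at chr7:45816462-45816501 in mm10, minus strand, in its 3′ UTR), had 30 and 7 tags at P6 and 743 and 815 at P21. Its level went from 9.11 to 425 CPM, 46.6-fold higher (95% interval 33.7 to 66.5). By the columns it was 29.1-fold and 121-fold higher, both outside that interval. Pdzph1, a PDZ domain gene, had 12 and 5 tags and then 490 and 566, 68.8-fold higher (42.7 to 119). Both genes were low in both columns at P6 and high in both at P21. That was largely set by choosing genes on the ratio in both columns. The P6 columns of Kcnj14 differed, at 14.0 and 3.66 CPM. Pvalb, the calcium buffer parvalbumin, had 11 and 5 tags and then 203 and 242, 30.8-fold higher (18.8 to 54.3). Cck, the neuropeptide cholecystokinin, had 2 and 3 tags and then 70 and 100, 37.6-fold higher (15.8 to 117). Gabrr2, a rho subunit of the GABA receptors on bipolar cell terminals, had 12 and 9 tags and then 187 and 217, 21.3-fold higher (13.7 to 34.8). Pvalb, Cck and Gabrr2 each had at most 12 tags in a column at P6. Aqp4 had 1 and 2 tags and then 73 and 88, a ratio of 59.4 (20 to 291). Lrtm1, a leucine-rich repeat transmembrane gene, had 16 and 11 tags and then 275 and 323, 24.5-fold higher (16.7 to 37.5). Traf3ip3 had 1 and 3 tags and then 101 and 150, 69.5-fold higher (26.8 to 257). The other genes of the leading 12 also had few tags at P6. Gramd2 had 7 and 0 tags and then 117 and 127. Cys1, which encodes a protein of the primary cilium, had 1 and 0 tags and then 61 and 58. The antisense transcript Pitpnm2os2 had 13 and 9 tags and then 268 and 329, at a site in an intron of its model. The last of the 12 is the lens gene Crybb2, which is given with the other crystallins below. Over all 6 stages, 11 of the 12 were highest at P21, and Crybb2 at P0. The choice put P21 above P6, so only a stage before P6 could be higher. The share over all genes called higher was not counted.

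The genes with the largest losses were by their choice higher at P6 than at P21. Pax7, a paired homeobox factor, had 126 and 127 tags at P6 and 3 and 1 at P21, 57.1-fold lower (95% interval 22.0 to 211). Its only site, chr4:139737059-139737078 on the minus strand, lay just downstream of the annotated end of the gene. Before P6 it stood between 0.805 and 2.57 CPM at each stage, so that P6 was the only stage with more than a few tags. Gal3st4, a sulfotransferase of galactose residues, had 169 and 170 tags and then 7 and 4, 27.8-fold lower (15.4 to 56.3). Hsd11b2, which inactivates glucocorticoids, had 55 and 43 tags and then 4 and 1, 17.7-fold lower (7.33 to 55.7). C2cd4b had 69 and 91 tags and then 6 and 2, 18.1-fold lower (8.95 to 42.6). Slc6a2, the noradrenaline transporter, had 50 and 54 tags and then 5 and 0, 18.8-fold lower (7.80 to 59.1). Robo3, a receptor of axon guidance, had 89 and 122 tags and then 10 and 5, 12.7-fold lower (7.53 to 23.1). Pnoc, the precursor of nociceptin, had 119 and 91 tags and then 12 and 6, 10.5-fold lower (6.51 to 18.1). Both P21 columns of these genes lay below both P6 columns, which was largely set by choosing genes on the ratio in both columns. Mzb1 was 13.2-fold lower, the serine protease St14 12.1-fold, Arid3c 10.2-fold and Klhl35 9.78-fold. Insm2, a zinc finger factor of newborn neurons, had 196 and 152 tags and then 24 and 3, and its P21 columns thus differed. Of these 12 genes 11 were highest at P6 among all stages, and Insm2 at E13.5. The choice put P6 above P21, so only a stage before P6 could be higher. The share over all genes called lower was not counted.

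**Figure D3:**
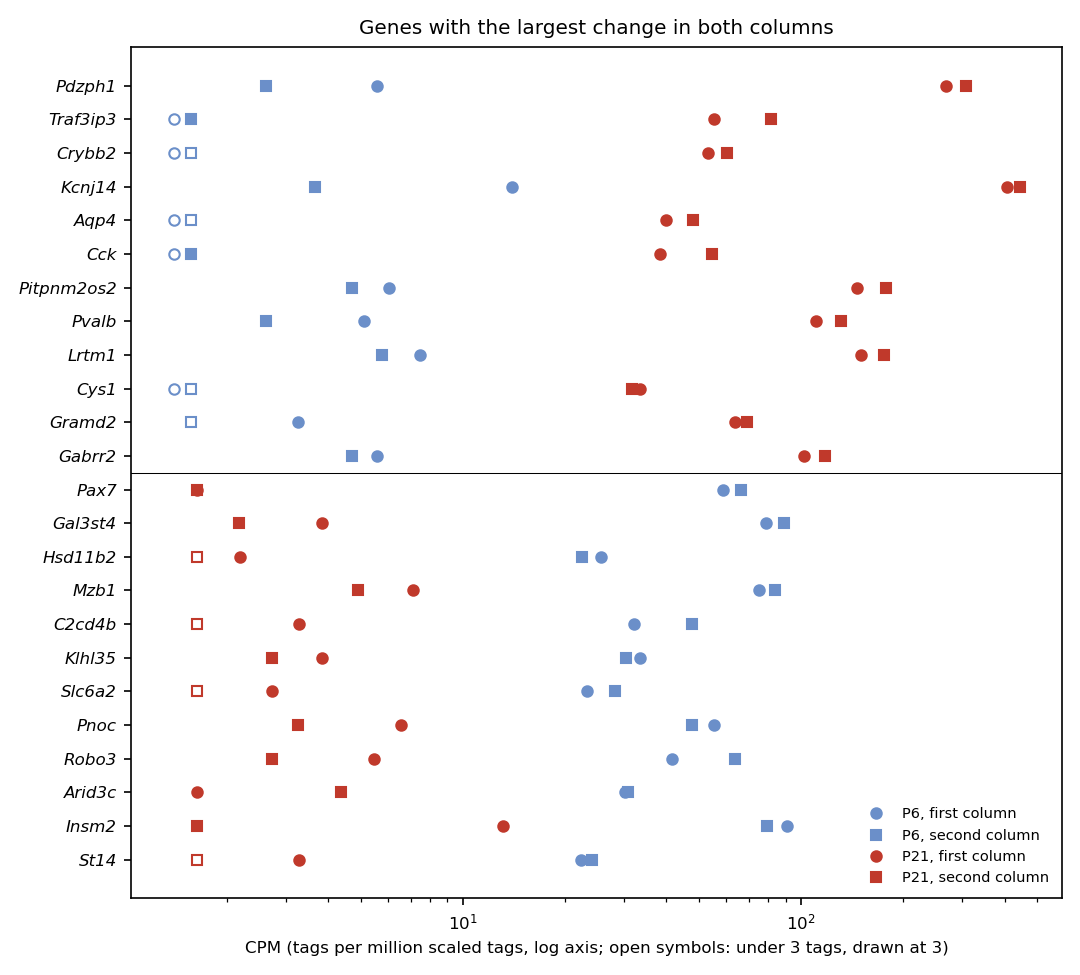
CPM (log axis) in each of the 4 columns for the 12 genes with the largest gain and the 12 with the largest loss in both columns. Blue symbols are P6 and red P21, circles the first and squares the second column, and open symbols mark counts under 3 tags drawn at 3. The genes were chosen for separate red and blue symbols, from Pdzph1 (4.19 against 288 CPM) to Pax7 (62.3 against 1.09 CPM).

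Rods carry the phototransduction cascade in their outer segments: the light-activated pigment switches on transducin, which activates a phosphodiesterase that lowers cGMP and closes a cation channel. Of 33 genes compared for this cascade and the outer segment, 12 were higher at P21 and 1 was lower. Their median log2 ratio was 0.75, against -0.01 over all genes compared. The largest gains were in a pair of genes that act on calcium and cGMP recovery. Guca1b, a calcium sensor of guanylate cyclase, had 87 and 28 tags at P6 and 944 and 999 at P21, 18.7-fold higher (15.5 to 22.8). Slc24a1, the rod sodium, calcium and potassium exchanger, had 78 and 46 tags and then 1051 and 1042, also 18.7-fold higher (15.6 to 22.6). Pde6a, the catalytic alpha subunit of the phosphodiesterase, had 310 and 266 tags and then 1596 and 1771, 6.47-fold higher (5.92 to 7.08). The others called were Rgs9bp, Fscn2, Guca1a, Impg1, Grk1, Abca4, Rcvrn, Cnga1 and Reep6, from 4.99-fold for Rgs9bp down to 2.36-fold for Reep6. Several genes of the cascade were not called. Pde6b, the beta subunit, had 559 and 549 tags and then 880 and 920, log2 ratios of 0.89 and 0.80. Sag, Pde6g and Gnb1, the transducin beta subunit, were above P6 in the first column and below it in the second.

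Rom1, the partner of Prph2 in the disc rim, was the only rod gene called lower. It had 1126 and 1075 tags at P6 and 141 and 53 at P21, 10.2-fold lower (8.84 to 11.9). By the columns it was 6.79-fold and 19.5-fold lower, both outside that interval. Its main site, chr19:8927393-8927420 on the minus strand in the 3′ UTR, went from 1108 and 1059 tags to 116 and 28, and a weak downstream site from 18 and 16 to 25 and 25. The columns of the main site at P21 were 4.16-fold apart after scaling. Without sites that far apart, the log2 ratio of Rom1 was 0.70, from the weak site alone.

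Of 17 cone genes 9 were higher and 1 lower, with a median log2 ratio of 1.08. Opn1mw had 35 and 13 tags at P6 and 513 and 576 at P21, 25.1-fold higher (18.8 to 34.3). By the columns it was 17.2-fold and 46.0-fold higher, both outside that interval. Opn1sw, the short-wavelength opsin, which mouse cones express early, had 675 and 641 tags and then 1159 and 1296, 2.07-fold higher. Arr3, cone arrestin, had 105 and 128 tags and then 437 and 501, 4.46-fold higher (3.86 to 5.17). Kcne2, a potassium channel subunit, was 4.47-fold higher and Cnnm4, a magnesium transporter, 3.60-fold. Rxrg, a retinoid receptor of young cones, had 162 and 157 tags and then 61 and 67, 2.25-fold lower (1.83 to 2.79). Grk1, the kinase shared with rods, is also in this list. The cone opsins and arrestin were thus called higher and Rxrg lower, and a call required the same direction in both columns.

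Of 14 photoreceptor transcription factors, 2 were higher, 1 was lower and 11 were not called, with a median log2 ratio of -0.28. Over all genes compared 6.69% were higher and 2.35% lower. Esrrb, a nuclear receptor of rods, had 100 and 93 tags and then 530 and 586, 6.40-fold higher (5.49 to 7.50). Mef2c had 18 and 13 tags and then 155 and 209, 13.0-fold higher. Prdm1, a repressor that holds young photoreceptors from the bipolar fate, had 203 and 191 tags and then 41 and 27, 5.23-fold lower (4.04 to 6.87). Nrl, the rod determinant, had 1739 and 1695 tags and then 1769 and 1874, log2 ratios of 0.26 and 0.20.

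ON bipolar cells read the photoreceptor signal through the metabotropic receptor Grm6, which closes the channel Trpm1 by way of a G protein. Of 26 genes 13 were higher and 0 lower, with a median log2 ratio of 1.04. Gng13, the gamma subunit of the cascade, had 61 and 53 tags at P6 and 485 and 528 at P21, 9.84-fold higher. Cacna1s, an L-type calcium channel, was 14.1-fold higher from 5 and 8 tags, and Sebox, a homeobox gene, 11.7-fold higher from 15 and 10 tags. Car8 was 7.69-fold higher. Trpm1 itself had 112 and 80 tags and then 330 and 378, 4.08-fold higher. Grm6 had log2 ratios of 0.23 and 0.18 and was not called.

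At the ribbon synapse, which releases glutamate continuously from photoreceptor and bipolar terminals, 7 of 22 genes were higher and 0 lower. Cabp4, a regulator of the photoreceptor calcium channel, had 17 and 24 tags and then 136 and 155, 7.86-fold higher (5.65 to 11.2). Frmpd1 was 4.90-fold higher and the complexin Cplx4 4.55-fold. Of 28 genes of the synaptic vesicle in general, 3 were higher, beside 6.69% of all genes compared: Vamp1 (5.38-fold), Syt2 (3.03-fold) and Syn2 (2.38-fold). Of 31 receptors and channels of mature neurons 11 were higher and 0 lower, with a median log2 ratio of 0.88. They included the GABA and glutamate receptor genes Gabrr2, Grm5 (4.82-fold) and Grin2a (4.26-fold) and the fast potassium channel Kcnc2 (4.41-fold).

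Of 20 ganglion cell and neurofilament genes 5 were higher: Pvalb, Spp1, Chrnb3, Nefh and Chrna6. Spp1, osteopontin, had 2 and 2 tags and then 31 and 27, 16.1-fold higher. Nefh, the heavy neurofilament, had 216 and 191 tags and then 446 and 493, 2.55-fold higher (2.27 to 2.88). Of 16 amacrine and horizontal cell genes 2 were higher, Calb1 (4.12-fold) and Th (2.21-fold), which makes the dopamine precursor. The counts of both lists stand beside 6.69% higher of all genes compared. Calb2 and Slc6a9 were not called, at 1.56-fold and 1.19-fold.

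Müller glia span the retina and recycle glutamate and retinoids. Of 30 of their genes 7 were higher and 1 lower, with a median log2 ratio of 0.30. Besides Aqp4, the transporter Abca8a had 20 and 12 tags and then 208 and 227, 15.1-fold higher (10.5 to 22.3). Rgr, a retinal opsin of Müller glia and pigment epithelium, was 4.37-fold higher, and the potassium channel Kcnj10, which buffers extracellular potassium, 3.47-fold. Glul, glutamine synthetase, had 643 and 583 tags and then 1663 and 1762, 3.09-fold higher (2.90 to 3.30). Spc25, a kinetochore gene in this list, was 2.76-fold higher. Crym, a thyroid hormone binding protein, had 892 and 811 tags and then 329 and 307, 2.42-fold lower (2.21 to 2.65). Of 8 astrocyte genes 3 were higher and 2 lower: Aldh1l1 (3.11-fold), Sparcl1 (2.25-fold) and Aldoc (2.06-fold) stood against Pdgfra (3.12-fold lower) and Fabp7. Fabp7, a lipid carrier of glial precursors, had 435 and 372 tags and then 66 and 9, and its P21 columns differed widely.

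**Figure D4:**
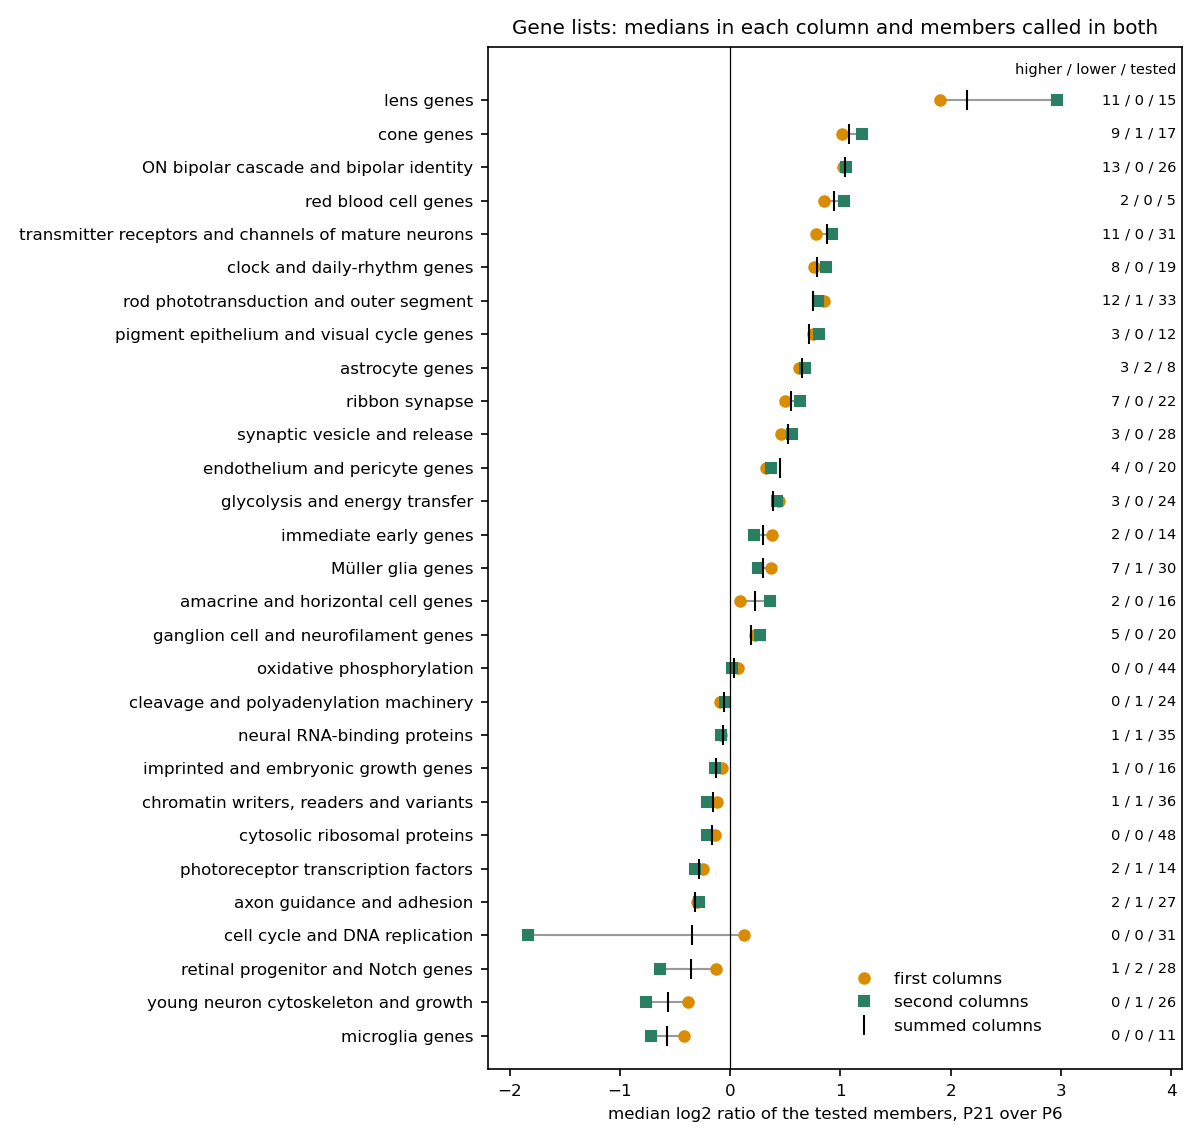
Median log2 ratio of P21 over P6 for each gene list with at least 5 genes compared, in the first columns (circles), the second columns (squares) and the summed columns (bars). The numbers at the right count members called higher, called lower and compared. The columns lie close for most lists and far apart for the cell cycle list (0.13 and -1.84) and the lens list (1.90 and 2.96).

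Genes of dividing cells showed the widest gap between the columns. Of 31 cell cycle and DNA replication genes 0 were called in either direction. Their median log2 ratio was 0.13 in the first columns, with 0 genes 2-fold lower, and -1.84 in the second columns, with 22 genes 2-fold lower. Their summed level was 2338 and 1827 CPM at P6 and 2323 and 747 CPM at P21. Ccnd1, the D1 cyclin of retinal progenitors, had 774 and 580 tags at P6 and 722 and 156 at P21. The direction of this list therefore rests on the column read. Of 28 progenitor and Notch genes 1 was higher and 2 were lower in both columns, beside 6.69% and 2.35% of all genes compared. In the second columns 11 of the 28 were 2-fold lower, where 730 genes in all were lower. The median of the 28 was -0.13 by the first columns and -0.64 by the second. Fgf15, a growth factor of progenitors, had 140 and 32 tags at P6 and 207 and 2 at P21. Dll3, a Notch ligand of newborn neurons, was lower in both columns, with 147 and 112 tags and then 60 and 11. Nfib, a factor of late progenitors and glia, had close columns throughout, with 253 and 222 tags and then 106 and 99, 2.09-fold lower (1.77 to 2.48). Jag1, a Notch ligand, had 85 and 73 tags and then 252 and 267, 3.64-fold higher (3.04 to 4.37).

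Of 26 genes of the growing neuronal cytoskeleton, 1 was lower and 0 were higher, beside 2.35% and 6.69% of all genes compared. The summed log2 ratio was below 0 in 25 of the 26. The median of the 26 was -0.56, with -0.39 by the first columns and -0.77 by the second. Over all genes compared the median was -0.01, and the share of all genes below 0 was not counted. Tubb2b, a tubulin of young neurons, had 176 and 183 tags and then 53 and 15, 4.77-fold lower (3.67 to 6.27). Tuba1a had 1574 and 1415 tags and then 1026 and 795, and Marcks 1450 and 1170 and then 837 and 504, both under 2-fold in at least 1 column. Of 27 axon guidance and adhesion genes 2 were higher, Cntn4 (5.16-fold) and Ncam1 (2.48-fold), and Robo3 was lower, beside 6.69% and 2.35% of all genes compared.

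Energy and timing genes were read next. Of 44 genes of oxidative phosphorylation and 48 of the cytosolic ribosome 0 were called, with median log2 ratios of 0.04 and -0.17. Of 24 genes of glycolysis and energy transfer 3 were higher, beside 6.69% of all genes compared. Hk2, the hexokinase of photoreceptors, had 20 and 13 tags and then 124 and 164, 9.66-fold higher (6.73 to 14.3). Slc16a1, a lactate transporter, was 6.24-fold higher (4.51 to 8.81) and Aldoc 2.06-fold. The circadian clock is a loop of activators and repressors, and its output factors bind D-box and E-box elements. Of 19 clock and daily-rhythm genes 8 were higher and 0 lower, with a median log2 ratio of 0.78. Drd4, the dopamine receptor of photoreceptors, had 53 and 33 tags and then 801 and 922, 22.2-fold higher (17.9 to 27.9). The output factors Hlf and Dbp were 5.06-fold and 3.34-fold higher and the repressor Bhlhe40 5.54-fold. Per3, Nr1d1, Bhlhe41 and Ciart were between 3.66-fold and 2.21-fold higher. Of 14 immediate early genes, Fos (5.62-fold) and Fosb (3.99-fold) were higher, beside 6.69% of all genes compared. Btg2 and Jun had log2 ratios between -0.68 and -0.99. The hour at which the retinas were collected is not given in the sources used here, so stage and time of day cannot be told apart for these genes.

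Genes of tissues next to the retina were read in the same way, beside 6.69% higher and 2.35% lower of all genes compared. Of 15 lens genes 11 were higher and 0 lower, with medians of 1.90 by the first columns and 2.96 by the second. Crybb2 had 1 and 1 tags at P6 and 97 and 111 at P21. Its ratio was 76.8 with the P6 count set to 3 tags and 115 (31.5 to 957) from the counts as they stand. Crygs had 5 and 4 tags and then 72 and 90, 19.9-fold higher (10.2 to 44.4). Cryba4 had 28 and 10 tags and then 176 and 75, and Crygc 28 and 3 tags and then 132 and 45. Like Crybb2, these crystallins were highest at P0 among all stages. Scaled over all 12 columns, Crygs had 145 CPM at P0, 2.23 at P6 and 44.1 at P21. Cryba4 had 434, 9.44 and 68.3 CPM and Crygc 367, 7.70 and 48.2 CPM. The summed level of the list was 627 and 387 CPM at P6 and 1855 and 860 CPM at P21, so the columns of 1 stage differed as well. The gamma crystallins are near-identical copies, and how tags were divided among them is uncertain. Of 12 pigment epithelium and visual cycle genes 3 were higher (Rgr, Mitf and Rdh5). Of 20 genes of vessels 4 were higher: the endothelial transporter Slco1a4 (14.1-fold), Flt1 (2.61-fold), Pdgfrb (2.45-fold) and Plvap (2.39-fold). Of 5 red cell genes Alas2 (2.35-fold) and Hbb-bt (2.27-fold) were higher. The hemoglobin genes are also close copies. Of 11 microglia genes 0 were called, with a median log2 ratio of -0.57. Of 4 mesenchyme genes 0 and of 3 surface epithelium genes 1 (Krt18, 2.42-fold higher) were called, and of 2 oligodendrocyte genes, Mbp and Cnp, 0 were called. The part of these tissues in the other results was not tested.

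Genes that regulate RNA and chromatin were read beside 6.69% higher and 2.35% lower of all genes compared. The lists are too small to set their counts apart from these shares. The cleavage and polyadenylation list had 24 genes compared and 1 lower, Papolg, a poly(A) polymerase, with 31 and 24 tags and then 11 and 10, 2.37-fold lower (1.41 to 4.12). The median of these genes was -0.06. Of 35 neural RNA-binding proteins Cpeb1, a cytoplasmic polyadenylation factor, was 5.44-fold higher (3.74 to 8.11) and Rbm24 3.11-fold lower (2.13 to 4.64). Of 36 chromatin genes Dpf3, a subunit of the BAF complex, was 3.03-fold higher and Hmgb3 2.79-fold lower. Of 16 imprinted and growth genes Impact was higher, at 3.72-fold.

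The sequence TAATCC is bound by the photoreceptor factor Crx and its relatives, and the E-box CACGTG by factors of the clock. Both were searched on either strand in RefSeq promoters (GRCm38.p6, 250 bases before to 50 after the start). A gene counted if any of its promoters held a match. TAATCC was present in 8.14% of all 27025 genes with a promoter entry. It was present in 12.4% of the 542 such genes called higher, in 5.91% of 186 called lower and in 9 of 23 rod genes (39.1%). It was also present in 5 of 13 photoreceptor factors (38.5%), 6 of 10 pigment epithelium genes and 2 of 13 cone genes (15.4%), and in 7.33% of the genes compared. CACGTG was present in 8.09% of all genes with an entry and in 11.9% of the genes compared. It was present in 10.9% of those called higher and in 5 of 17 clock genes (29.4%). A match is a description of the sequence only. The promoters of 4 genes that were higher at P21 are shown around the match as examples, with the matched bases in capitals.
Abca4 (retinal transporter of the disc, 2.72-fold higher; chr3:122044390-122044419, plus strand): gtaattagagggGGATTAtgcttgaagggg
Guca1a (cyclase activator, 4.38-fold higher; chr17:47400646-47400675, minus strand): cctgttaagaagGGATTAgcagactgcaaa
Bhlhe41 (clock repressor, 2.76-fold higher; chr6:145865556-145865585, minus strand): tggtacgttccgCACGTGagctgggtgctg
Ciart (clock repressor, 2.21-fold higher; chr3:95882327-95882356, minus strand): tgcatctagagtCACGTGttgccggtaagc
In Abca4 and Guca1a the motif was read on the opposite strand, as GGATTA.

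Poly(A) site choice was measured in genes with a pair of sites. The pair was the 2 sites with the most tags over the 4 columns, each with at least 5% of the tags of the gene, and the distal share is the percent of the pair's tags at the site further downstream. Of 6019 genes with a pair, 5123 had at least 20 tags at it in every column. The median distal share was 60.9% at P6 and 61.9% at P21, and the median change was 0.82 percentage points (0.64 by the first columns and 0.88 by the second). In 44 genes the distal share was at least 20 points higher at P21 in both columns (0.859% of the pairs compared) and in 25 genes it was at least 20 points lower (0.488%). Just outside the threshold, the smaller-column change was 19.7 points up, and for the decrease the values on either side were 20.3 and 19.9 points. In none of the 69 genes was either site 4-fold apart between the columns. Only 169 sites in all were that far apart at P6 or P21, and a call needed both columns to move. Their absence here therefore says little. Most pairs were thus not called at 20 points. Moves in opposite directions cancel in the median, so it does not show how far single pairs moved.

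The shifts differed by where the sites lay. Of 4080 pairs within 10 kb in the last exon or past it, 24 were more distal (0.588%) and 7 less distal (0.172%). Of 513 pairs with the proximal site in an intron, 8 were more distal (1.56%) and 12 less distal (2.34%), and of 530 other pairs 12 (2.26%) and 6 (1.13%). The share of all gene tags at intronic sites was 2.16% at P6 and 2.38% at P21, a change of 0.22 points, with 0.15 by the first columns and 0.29 by the second. Of the 44 genes more distal 3, and of the 25 less distal 6, were also called higher, beside 6.69% of all genes compared, and 0 were called lower.

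Genes of neurons were among those that shifted to the distal site, and the last 30 bases before the sites of some are shown because they carry the shift. Kcnc1, a fast potassium channel, had a distal share of 36.1% and 36.1% at P6 and 60.0% and 64.2% at P21, at sites 5353 bases apart, and the gene was also 2.61-fold higher. Pclo, the piccolo protein of ribbon and other active zones, had shares of 24.3% and 24.3% and then 47.8% and 50.3%, between alternative 3′ ends 67454 bases apart. Dclk1, a microtubule-linked kinase, had 35.5% and 41.1% and then 62.7% and 67.3%. Camk1d, a calcium-dependent kinase, had 42.3% and 38.2% and then 68.9% and 66.9%, away from an intronic site. Kcnma1, the BK potassium channel, had 44.6% and 46.9% and then 72.7% and 69.3%, also away from an intronic site. B4galt2, a galactosyltransferase, had 29.8% and 25.5% and then 55.3% and 55.5%. These genes were chosen for a change of at least 20 points in both columns, so the gap between their stages was largely set by the choice. Both sites of Kcnc1 and Pclo, and the distal site of B4galt2, hold a poly(A) signal (capitals) in the 30 bases shown, and the proximal site of B4galt2 holds neither AATAAA nor ATTAAA in the last 40.
Kcnc1 proximal (chr7:46433322-46433351, plus strand, 3′ UTR): gctttatgAATAAAcctgattggtccattt
Kcnc1 distal (chr7:46438675-46438704, plus strand, 3′ UTR): cctggaAATAAAgagctgacttttgatctg
Pclo proximal (chr5:14795975-14796004, plus strand, 3′ UTR): taataAATAAAgtatctttatttcattcat
Pclo distal (chr5:14863429-14863458, plus strand, 3′ UTR): cagccttactAATAAAtactgaaactatca
B4galt2 proximal (chr4:117873133-117873162, minus strand, 3′ UTR): tgggtgctttagtaaaaaacgttaacggag
B4galt2 distal (chr4:117869261-117869290, minus strand, 3′ UTR): gaaatttcATTAAAacctacggactttaaa

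Other leading distal shifts were in genes of mixed function. Pcsk5, a proprotein convertase, went from 17.1% (95% Wilson interval 10.1 to 27.6) to 69.3% (58.2 to 78.6), on 70 and 75 tags and between ends 128329 bases apart. Sptb, erythrocyte spectrin beta, went from 50.3% (45.7 to 55.0) to 94.4% (91.8 to 96.1) between 3′ ends 15644 bases apart. The noncoding host gene Snhg20 went from 51.1% to 91.3%, and Rtl8b, a retrotransposon-derived gene, from 23.7% and 21.6% to 59.2% and 60.7%. Fbxl2, an F-box gene, went from 37.8% to 73.5% away from an intronic site, and Exosc10, a nuclease of the RNA exosome, from 54.0% to 88.0%. Dcdc2a, a microtubule gene, went from 24.4% to 61.2% and Trerf1 from 21.7% to 52.9%. The microglial receptor gene Cx3cr1 went from 39.4% to 71.9%. Its distal site lay 124705 bases from the proximal one, in an intron of the gene model. Whether that site is an end of Cx3cr1 transcripts was not tested. Pairs of Exosc10, Trerf1, Pcsk5, Dcdc2a and Cx3cr1 held under 100 tags at each stage, and their intervals are wide.

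Of the 25 shifts to the proximal site, 12 had their proximal site in an intron. Crxos, the gene on the strand opposite Crx, had a distal share of 86.8% and 91.0% at P6 and 45.6% and 47.2% at P21. Its intronic site went from 20 and 13 tags to 131 and 150, while its distal site stayed between 110 and 134 tags in all 4 columns. Mthfsd went from 80.8% (75.7 to 85.1) to 44.9% (38.4 to 51.6). Sgip1, an endocytic adaptor of synapses, went from 82.8% to 47.4%, and its intronic site from 6 and 4 tags to 52 and 58. With last-exon sites only, which took another pair, its distal share rose by 4.38 points. Cc2d2a, a gene of the ciliary transition zone, went from 79.7% to 48.6%. Kdm4c, a histone demethylase, went from 57.6% to 25.4%. These intronic sites gained tags in both columns. A930004D18Rik, also with an intronic proximal site, went from 82.5% to 47.9%, and the noncoding genes Gm2415 and 2700033N17Rik went from 36.4% to 6.58% and from 56.7% to 24.8%.

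Trio and Syt2 shifted between exonic ends. Trio, an exchange factor that acts on the neuronal cytoskeleton, had a distal share of 69.6% and 78.3% at P6 and 25.5% and 35.9% at P21, at 3′ UTR ends 23633 bases apart. Its proximal end went from 24 and 15 tags to 70 and 66 and its distal end from 55 and 54 to 24 and 37. With the pair chosen over all 12 columns its distal share rose by 6.71 points. Syt2, a calcium sensor of fast release, went from 37.1% (26.2 to 49.5) to 7.61% (4.67 to 12.2), and the gene was 3.03-fold higher. The ends of Trio are shown because they carry the largest proximal shift; the proximal one holds AATAAA (capitals) and the distal one neither signal in its last 40 bases.
Trio proximal (chr15:27770536-27770565, minus strand, 3′ UTR): gctgactctaAATAAAtgcaaacaaagaca
Trio distal (chr15:27746903-27746932, minus strand, 3′ UTR): gctttataaatttttaaatacatttcccta

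**Figure D5:**
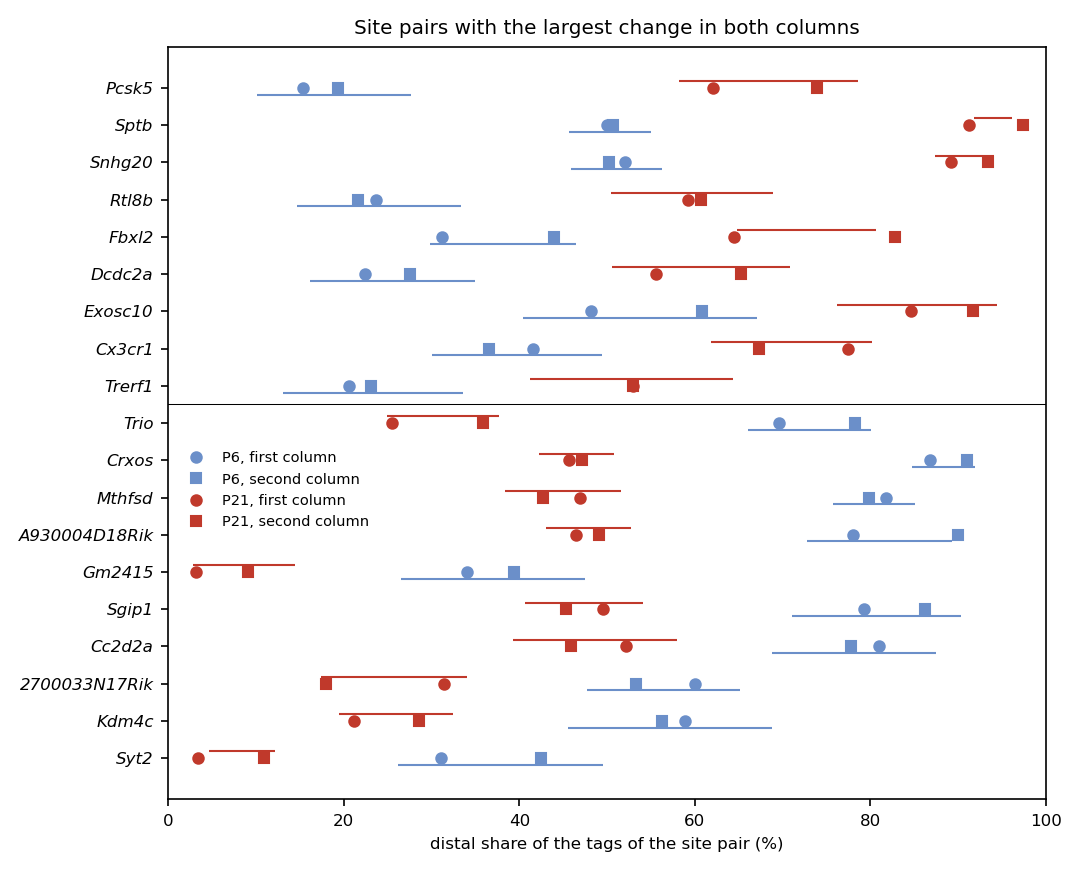
Distal share of the site pair (percent) in each of the 4 columns for the genes with the largest shifts to the distal site (top rows) and the 10 with the largest shift to the proximal site (bottom rows). Blue symbols are P6 and red P21, circles the first and squares the second column, and lines are 95% Wilson intervals on the summed columns. The genes were chosen for stages apart in both columns, as in Sptb (50.3% against 94.4%) and Trio (73.6% against 31.0%).

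Several genes of the neural lists moved the same way in both columns and missed 20 points in at least 1 of them. Vsx1, a bipolar cell homeobox gene, had distal shares of 49.7% and 50.3% at P6 and 75.0% and 69.3% at P21. Grm6 had 57.0% and 57.5% and then 79.8% and 75.6%. Syn2 had 19.8% and 17.6% and then 38.8% and 39.3%, and Syngr1, a vesicle protein, 75.8% and 78.4% and then 93.6% and 94.9%. Others moved to the proximal site. Nrp2, a receptor of axon guidance, had 75.0% and 84.3% and then 56.3% and 65.7%, and Thrb, the thyroid hormone receptor of cones, 86.2% and 94.9% and then 72.7% and 63.4%. Pou4f1, a ganglion cell factor, had 49.0% and 42.6% and then 36.2% and 24.8%. Among the cleavage and polyadenylation machinery 0 of 13 pairs were called, and among neural RNA-binding proteins 0 of 25.

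The poly(A) signals of the shifting pairs were read in the last 40 bases before each site, from GENCODE M21 transcripts. Over all pairs with sequence, AATAAA was present at 53.8% of 4679 proximal sites and 67.9% of 4645 distal sites. In the pairs that shifted to distal it was present at 25 of 35 proximal sites (71.4%) and 22 of 35 distal sites (62.9%). In those that shifted to proximal it was present at 9 of 12 proximal sites (75.0%) and 13 of 22 distal sites (59.1%). Neither AATAAA nor ATTAAA was present at 28.2% of all proximal and 14.8% of all distal sites. The counts in the shifting pairs are small, and no test was made.

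Long noncoding genes were called more often than protein-coding genes. Of 477 compared, 107 were higher (22.4%) and 26 lower (5.45%), against 642 (5.89%) and 234 (2.15%) of 10904 protein-coding genes. Their median level was 20.6 CPM against 62.3 CPM, and calls were more common at low levels in general: 14.1% of genes under 20 CPM were higher, against 4.02% between 50 and 200 CPM. The part of the level in this gap was not tested.

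Tags outside annotated genes made up more of the table at P21. The 3576 sites outside genes and their 1000 bases downstream held 2.79% of the tags at P6 and 3.68% at P21. Of the 1006 with enough tags, 358 were higher (35.6%) and 56 lower (5.57%) in both columns, against 7.65% and 2.69% of 15860 sites inside genes. Among genes, calls were more common at low levels. The levels of these 2 groups of sites were not matched, and the part of the level in this gap was not tested. At chr19:8141285-8141305 on the plus strand the tags went from 13 and 11 at P6 to 248 and 309 at P21, and at chr9:107673015-107673033 on the minus strand from 10 and 3 to 200 and 229. A pair of neighbours on chromosome 2, minus strand, at 5076802-5076819 and 5080345-5080377, went from 0 and 1 tags to 98 and 113 and from 2 and 0 to 74 and 101. In the other direction, sites at chr11:94795204-94795220 and chr11:94810787-94810804 on the minus strand went from 87 and 95 tags to 2 and 2 and from 129 and 142 to 7 and 1. At chr4:136955503-136955527 on the plus strand they went from 111 and 128 to 4 and 2. These sites were chosen by the size of the change, and none was given to a gene. Some lay past a gene on its strand, beyond the 1000 bases allowed. The chromosome 9 site follows the only site of Gnat1, chr9:107674475-107674506. Another at chr18:61291422-61291439, plus strand, with 5 and 2 tags and then 96 and 114, follows the distal site of Pde6a at 61289924. Whether such sites are further ends of these genes was not tested.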

How the data were processed

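PA-seq libraries were made by the authors from total retinal RNA by oligo(dT) priming and 16 cycles of PCR, per the labels' protocols. The aligner was BWA 0.7.5a-r405 and the build mm10, per the submitters' processing notes. The deposited table holds counts of tags per site, whole numbers in 12 columns, and 1 enrichment score per site that the authors deposited, used here only to describe the table (lowest 3.00). Clustering, filters and duplicate handling are not given in the sources used here. Sites were given by their 3′ edge to same-strand GENCODE M21 genes (GRCm38) or up to 1000 bases downstream (29105 of 32688 sites). Mitochondrial sites were left out. Columns were scaled by TMM (edgeR 4.0.16, R 4.3.3) over the 4 columns, and 3 tags were 1.40 to 1.64 CPM. Ratios, intervals and shares were computed in Python 3.11.15 with scipy 1.17.1. The code of the calls was run on simulated tags with known changes. There the columns of a stage shared the same rate and differed by counting error only. That run therefore says nothing of the gaps between columns seen here. With 1 sample per stage no test across samples was possible. No count column was left out of the table read.

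Named are the 12 genes higher and 12 lower with the largest smaller-column ratio (at least 20 CPM, no clone names), up to 4 genes per list, the 10 leading pairs per direction and up to 6 pairs of lists. Genes with gaps between columns, retina markers, other pairs and other list members were named after their values were seen. Results of 2 genes are not reported here, but these genes count in the totals of lists and calls. The members and lists were chosen with earlier results of these data known. Alternatives changed the scaling (total tags, DESeq2 1.42.0 size factors), the minimum of tags, thresholds, columns, downstream bases and the choice of pair.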

Additional observations from a re-analysis of the deposited data

How the results depend on the processing

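No paired analysis was possible because each stage is 1 sample and no test was made. Under total-tag or DESeq2 scaling, no minimum of tags, the first columns alone, no downstream bases, and without sites 4-fold apart between columns (chosen after seeing the data), the counts of genes higher and lower stayed within 1.5 times 770 and 271. Those lower numbered 157 with at least 50 tags. At 4-fold 254 were higher and 42 lower, from the second columns alone 1215 and 730, and from summed columns 1317 and 619. Stricter thresholds and fewer columns give fewer or more genes by construction. Pairs more and less distal numbered 21 and 12 with at least 50 tags, 284 and 171 at 10 points, 9 and 5 at 30 points, 103 and 55 in the first columns alone and 148 and 95 in the second alone. With last-exon sites only, 12 pairs were less distal. The intronic share changed by 0.15 points in the first columns, 0.29 in the second and 0.26 without downstream bases. The median distal change stayed within the spread of the columns.

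Direction reversed in these: Rom1 (log2 0.70 without sites 4-fold apart); with the pair chosen over 12 columns Sugt1 (-4.22 points), Trio (6.71), and, there and with last-exon sites only, 2810002D19Rik (1.33), Slc39a10 (0.28) and Dcun1d2 (0.86); with last-exon sites only Sgip1 (4.38). Each reversal came from another pair of sites. For Rom1 only its weak site was left. Over all alternatives the log2 ratios of named genes and list members held 833 times within their counting interval and left it 57 times. Depth limits genes under 20 tags, which were not compared.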

Other observations

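The 66 genes that were at least 8-fold higher at P21 in both columns, with 100 tags or more there, held 12390 and 14094 tags at P21. At E15.5 they held 2319 tags in the first column and 360 in the second, at P0 2063 and 562, at E13.5 703 and 320, at P6 896 and 593, with E18.5 at 895 and 310. The first column was thus higher at each earlier stage.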
